A study of Mus musculus with 12 samples.

Results

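The 41 genes described here encode the structural proteins of the sarcomere and the factors that help to assemble it. They were taken by symbol from a list of members, and all 41 were found among the 55401 genes of the count table and passed the filter on low counts. They fall into 12 thin filament genes, 6 genes of titin, myosin-binding protein C and the M-band, 20 genes of the Z-disc and its links to membrane and cytoskeleton, and 3 chaperone genes. The libraries are RNA-seq libraries from mouse left ventricle in 4 groups of 3. The first 2 groups carry the T497A substitution in Prkca, the gene of protein kinase C alpha, and had undergone transverse aortic constriction (TAC) or sham surgery. The other 2 are wild type for Prkca, with TAC or sham surgery. TAC narrows the aorta so that the left ventricle pumps against a raised pressure, and here it was done with a 27-gauge needle at 10 weeks of age. In all groups the tissue was taken 5 weeks after surgery, at 15 weeks. The series title names CRISPR-Cas9 base editing and heart failure, and the labels give no strain, sex or number of animals per library, and do not say how the T497A line was kept or whether it is homozygous.

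The sarcomere is the contractile unit of striated muscle. Thin filaments of actin, regulated by troponin and tropomyosin, slide along thick filaments of myosin. Titin spans from the Z-disc, where thin filaments are anchored in alpha-actinin, to the M-band, where myomesins cross-link thick filaments. In the heart, mutations in many of these genes cause hypertrophic or dilated cardiomyopathy, and the Z-disc is also a site where mechanical load is sensed.

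The libraries held 36862004 to 46898344 counts each, of which the 41 genes took 4.10 to 5.27%. Mitochondrially encoded genes took 19.6 to 20.9% in wild type TAC hearts and 24.6 to 30.9% in the other 9 libraries. The labels give the cell type as cardiomyocyte, but describe extraction from cardiac tissue with no step of cell sorting. Ventricular cardiomyocyte markers dominated, and markers of fibroblasts, endothelium, macrophages and smooth muscle were present in every library. Skeletal muscle markers were uneven, with sums of 1.35 to 35.2 CPM (counts per 1000000 counts), and Tnnc2 among them was at 0 in all T497A TAC and wild type sham libraries. Myh4, a fast skeletal myosin, exceeded 5 CPM in T497A sham replicates 1 and 2, wild type TAC replicate 2 and wild type sham replicates 1 and 2. Results for the 41 genes that this moved are described below also without those 5 libraries, a choice made after seeing the data. That leaves 1 library in each sham group (replicate 3), whose spread is assumed to be like that of the other groups. In bulk tissue, fewer cells of a type and less RNA per cell cannot be told apart. Each title carries a different number, which may be that of an animal, but the labels do not say what it marks or that the libraries of a group came from separate animals. The p-values therefore measure the spread between libraries, which may be technical. The numbers fall into 2 ranges, 64 to 82 in 6 libraries and 137 to 201 in the other 6. The lower range holds replicates 1 and 2 of T497A sham, wild type TAC and wild type sham, among them all 5 libraries rich in Myh4, while the 3 T497A TAC libraries are all in the upper range. A fit with the range as a term, also chosen after seeing the data, is given below where it moved calls. Prkca itself is no check of the labels, since a substitution need not change its counts.

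Promoter windows from RefSeq are shown for some of the genes on which the results turn. Each window runs from 250 bases before the annotated start to 50 bases after it on the gene's strand (GRCm38.p6), and 35 of the 41 genes had one. Lmod3, whose TAC effect also differed between the genotypes below, was not among them. Flnc (filamin C, an actin cross-linker of the Z-disc), Synpo2l (a Z-disc protein of the synaptopodin family) and Pdlim1 (a PDZ and LIM domain protein that binds alpha-actinin) rose after TAC in wild type hearts, while Cmya5 (myospryn, which binds desmin at the costamere) fell. Flnc lies at chr6:29432903-29433202 (plus strand), Synpo2l at chr14:20668305-20668604 (minus strand), Pdlim1 at chr19:40271567-40271866 (minus strand) and Cmya5 at chr13:93144675-93144974 (minus strand). Capitals mark an M-CAT motif (CATTCC) in Flnc and a MEF2 site in Synpo2l.
Flnc promoter: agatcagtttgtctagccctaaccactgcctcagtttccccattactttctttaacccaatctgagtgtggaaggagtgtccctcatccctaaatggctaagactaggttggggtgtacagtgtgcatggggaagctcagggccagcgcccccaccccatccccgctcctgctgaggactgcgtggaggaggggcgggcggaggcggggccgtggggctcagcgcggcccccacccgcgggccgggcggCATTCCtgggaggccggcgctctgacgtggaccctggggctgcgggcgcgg
Synpo2l promoter: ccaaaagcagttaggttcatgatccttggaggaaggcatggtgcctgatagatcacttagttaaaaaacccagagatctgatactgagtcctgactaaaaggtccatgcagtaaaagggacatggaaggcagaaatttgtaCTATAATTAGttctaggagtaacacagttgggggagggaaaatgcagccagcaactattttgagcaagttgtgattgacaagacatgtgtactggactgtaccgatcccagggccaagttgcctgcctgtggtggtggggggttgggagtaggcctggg
Pdlim1 promoter: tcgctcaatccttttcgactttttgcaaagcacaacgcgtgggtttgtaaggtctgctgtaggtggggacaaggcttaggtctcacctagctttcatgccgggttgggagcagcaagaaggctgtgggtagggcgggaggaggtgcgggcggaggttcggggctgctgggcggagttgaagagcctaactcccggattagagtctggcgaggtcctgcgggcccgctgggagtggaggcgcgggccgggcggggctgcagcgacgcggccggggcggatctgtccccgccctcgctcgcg
Cmya5 promoter: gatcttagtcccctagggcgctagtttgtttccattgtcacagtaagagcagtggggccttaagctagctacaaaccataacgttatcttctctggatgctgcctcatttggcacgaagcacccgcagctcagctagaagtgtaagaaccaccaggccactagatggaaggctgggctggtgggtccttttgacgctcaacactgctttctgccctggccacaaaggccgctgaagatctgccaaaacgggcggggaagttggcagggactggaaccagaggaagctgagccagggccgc

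In Flnc the M-CAT motif, which is bound by TEAD factors, began 1 base before the start. In Synpo2l the MEF2 site, bound by the myocyte enhancer factors, began 109 bases before it. Both strands were searched for M-CAT, E-box (CANNTG), TATA box (TATAAA), CArG box and MEF2 letters. The window of Pdlim1 held none of these letters and that of Cmya5 only an E-box, which describes these 300 bases alone. The Synpo2l window also held 2 E-boxes, and E-boxes are not in capitals. Of the 35 windows, 6 (17.1%) held a MEF2 site (Mybpc3, Myom3, Myoz2, Synpo2, Synpo2l and Ttn), against 3.3% of all 27025 windows. A CArG box stood in 3 (8.6%; Ldb3, Myom1 and Vcl), against 1.6% of all windows. M-CAT was in 25.7%, against 14.7%, the E-box in 77.1%, against 72.1%, and the TATA box in 11.4%, against 14.2%. A match of letters is a description and not a binding site.

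The levels of the genes spanned over 4 orders of magnitude per length of annotated exon. That length is the union over all transcripts of a gene, so it can exceed the length of any 1 transcript. It was 1.041 kb for Tnnc1, 2.063 kb for Tnni3, 6.485 kb for Tpm1 and 7.752 kb for Tnnt2. In sham wild type hearts the most abundant per kb were Tnnc1 (troponin C, the calcium sensor of the thin filament) at 1456 ± 86.4 CPM per kb, Tnni3 (cardiac troponin I) at 1409 ± 8.47 and Mybpc3 (cardiac myosin-binding protein C) at 1042 ± 79.2 (SD, n = 3 libraries). Tcap (telethonin, which caps titin at the Z-disc), Tpm1 (the main tropomyosin of heart) and Tnnt2 (cardiac troponin T) followed at 886, 858 and 822 CPM per kb. Tnnc1 and Tnni3 did not differ beyond the spread of Tnnc1, nor did Tcap, Tpm1 and Tnnt2 beyond theirs. The order depends on exon length. By CPM in wild type sham hearts, Tnnt2 (6370) and Tpm1 (5564) lay above Tnni3 (2907) and Tnnc1 (1515). At the other end stood Pdlim3 at 2.01 ± 0.0967, Myom3 at 0.548 ± 0.179 and Tnni1 at 0.0563 ± 0.0219 CPM per kb.

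**Figure D1:**
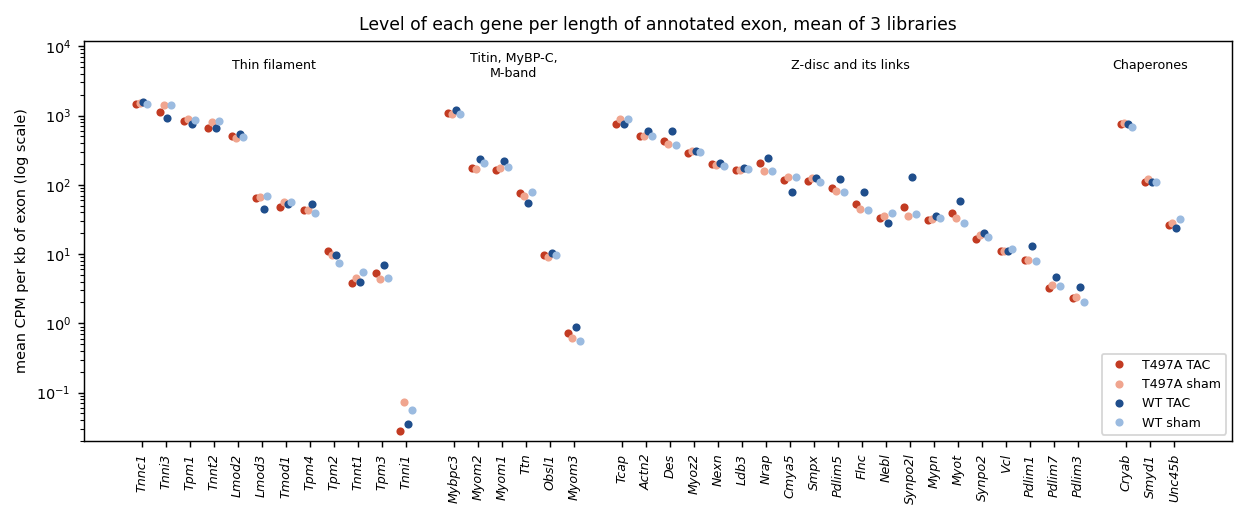
Mean level of each of the 41 genes in CPM per kb of annotated exon (log scale), by class, with 1 point for each group of 3 libraries. Tnni1 and Myom3 stand far below the other genes of their classes in all 4 groups.

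The isoform families were each held by 1 or 2 genes. Shares per kb below also depend on the annotated exon lengths. Tnni1 (slow skeletal troponin I, the isoform of the fetal heart) had 0 to 14 counts per library. It was at 0.0892, 0 and 0.208 CPM in T497A TAC hearts, 0.199, 0.277 and 0.308 CPM in T497A sham hearts, 0.241, 0.0462 and 0.0932 CPM in wild type TAC hearts and 0.139, 0.179 and 0.290 CPM in wild type sham hearts. The count of 0 in T497A TAC replicate 2 allows a level of up to 0.0725 CPM (3 counts, counting error only). At this depth no difference in Tnni1 between the groups was detectable.

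Tnnt1 (slow skeletal troponin T) made up 0.476 to 0.681% of troponin T per kb in T497A TAC hearts, 0.446 to 0.672% in T497A sham hearts, 0.545 to 0.645% in wild type TAC hearts and 0.609 to 0.715% in wild type sham hearts, the rest being Tnnt2. Its levels were 8.39, 7.01 and 10.3 CPM in T497A TAC hearts, 7.91, 11.0 and 11.3 CPM in T497A sham hearts, 8.77, 9.68 and 8.02 CPM in wild type TAC hearts and 13.6, 12.2 and 10.5 CPM in wild type sham hearts. In wild type all 3 TAC libraries were below all 3 sham libraries, but the log2 fold change of -0.46 ± 0.17 (SE) did not pass the threshold (adjusted p = 0.0585). Among myomesins, Myom1 and Myom2 shared the family about equally per kb in every group, with Myom3 at 0.0996 to 0.303%.

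Tpm1 held 92.4 to 94.0% of tropomyosin per kb in T497A TAC hearts, 91.8 to 95.1% in T497A sham hearts, 90.6 to 92.5% in wild type TAC hearts and 93.4 to 95.2% in wild type sham hearts. The other tropomyosins are better known from smooth muscle, slow skeletal muscle and the cytoskeleton of non-muscle cells. The Tpm1 shares of the 3 wild type TAC libraries lay below those of all 3 wild type sham libraries.

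TAC in wild type hearts changed 18 of the 41 genes (43.9%), 12 higher and 6 lower, by edgeR's quasi-likelihood test with Benjamini-Hochberg adjustment at 0.05 over all tested genes. Of all 15764 genes tested, 25% passed, 12.3% higher and 12.6% lower. An unadjusted p under 0.05 was reached by 24 of the 41, and by 36.3% of all tested genes. The higher genes were mostly of the Z-disc and the lower ones were spread over thin filament, Z-disc and chaperones. The median log2 fold change of the 41 was 0.13, and that of all tested genes 0.01. The groups' libraries did not overlap for 25 of the 41 genes (61.0%), 17 above and 8 below, where 42.2% of all tested genes did not overlap, 21.5% above and 20.7% below. Leaving out each library in turn gave 10 to 14 higher and 6 to 8 lower. Over all genes those fits called 2766 to 3983, with 16163 to 16260 tested. Without the 5 libraries rich in Myh4, fewer of the 41 were higher and fewer were lower, and fewer of all tested genes passed.

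**Figure D2:**
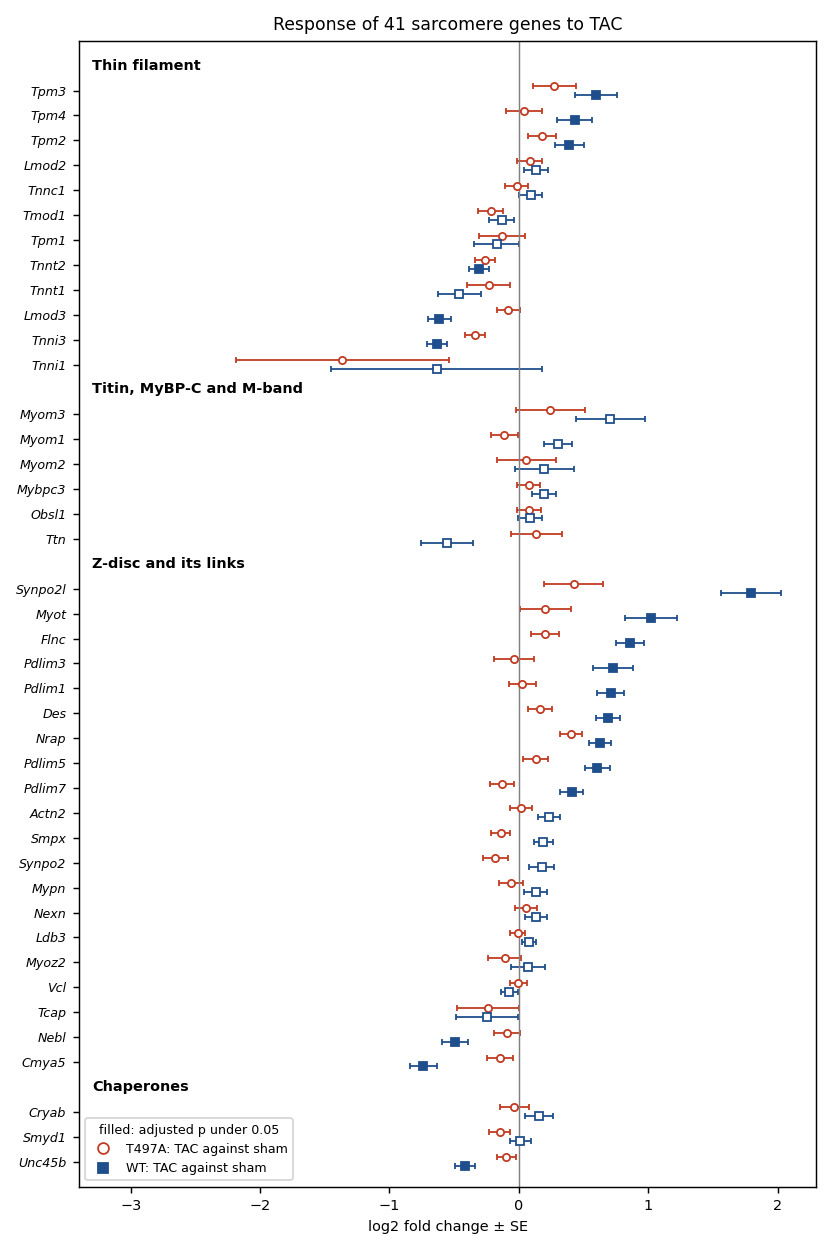
Log2 fold change ± SE of each gene after TAC against sham, in T497A (red circles, upper) and wild type (blue squares, lower), by class and ordered by the wild type value. Filled symbols passed the adjusted threshold of 0.05, which 18 genes did in wild type and 0 in T497A.

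Of the 20 Z-disc genes, 9 rose and 2 fell in wild type hearts, and 9 did not pass. The largest change was in Synpo2l (chr14:20658946-20668354, GRCm38, minus strand), which was at 699, 381 and 746 CPM in wild type TAC hearts, against 161, 190.3 and 175 CPM in wild type sham hearts. It rose 3.47-fold, with a log2 fold change of 1.79 ± 0.23 (adjusted p = 0.000527), given as estimate ± SE here and below. The TAC libraries were far apart among themselves, replicate 2 lying well below the other two, yet all 3 were above every sham library.

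Flnc (chr6:29433256-29461883, plus strand) was at 836, 595 and 810.2 CPM in wild type TAC hearts, against 433, 434 and 370.4 CPM in wild type sham hearts. It rose 1.81-fold (0.86 ± 0.11; adjusted p = 9.66e-05), with no overlap. Des (desmin, the intermediate filament that ties Z-discs together) was at 2155, 2127 and 2558 CPM in wild type TAC hearts, against 1448, 1502 and 1297 CPM in wild type sham hearts. It rose 1.61-fold (0.69 ± 0.093; adjusted p = 0.000173), again with every TAC library above every sham library. Nrap, a nebulin-related protein that takes part in myofibril assembly and sits at the intercalated disc, was at 1384, 1304 and 1347 CPM in wild type TAC hearts, against 878, 929 and 806 CPM in wild type sham hearts. Its rise was 1.54-fold (0.63 ± 0.084; adjusted p = 0.000157), and the 3 TAC libraries lay close together.

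The 4 Pdlim genes, whose PDZ and LIM domain proteins bind alpha-actinin at the Z-disc and on actin bundles, all rose in wild type. Ldb3 (cypher), also a PDZ and LIM domain protein, did not pass (0.078 ± 0.056; adjusted p = 0.349). Pdlim1 (chr19:40221173-40271842, minus strand) was at 64.2, 75.6 and 66.6 CPM in wild type TAC hearts, against 39.2, 48.7 and 38.4 CPM in wild type sham hearts, a 1.63-fold rise (0.71 ± 0.10; adjusted p = 0.000268). The log2 fold changes of the others were 0.73 ± 0.15 for Pdlim3, 0.61 ± 0.096 for Pdlim5 and 0.41 ± 0.09 for Pdlim7, with adjusted p-values of 0.00346, 0.000518 and 0.00474. Pdlim3 and Pdlim7 were low, at 17.1 ± 1.72 and 22.5 ± 1.59 CPM in wild type TAC hearts, against 10.3 ± 0.498 and 16.9 ± 1.23 CPM in wild type sham hearts. Myot (myotilin, which binds alpha-actinin and filamin C) averaged 128 ± 24.2 CPM in wild type TAC hearts, against 62.8 ± 6.79 CPM in wild type sham hearts (SD, n = 3 each), a 2.03-fold rise (1.02 ± 0.20; adjusted p = 0.00419).

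The Z-disc genes that fell were Cmya5 and Nebl. Cmya5 (chr13:93040713-93144724, minus strand) was at 943, 863 and 961 CPM in wild type TAC hearts, against 1596, 1465 and 1552 CPM in wild type sham hearts, 1.67-fold lower (-0.74 ± 0.10; adjusted p = 0.000216), with a wide gap between the groups. An antisense gene covers 20.7% of its exons, and the sources used here do not say whether the counting used strand. Nebl (nebulette, the cardiac nebulin relative that links thin filaments to the Z-disc) averaged 428 ± 38.1 CPM in TAC hearts, against 603 ± 49.2 CPM in sham hearts (-0.50 ± 0.10; adjusted p = 0.00291).

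The other 9 Z-disc genes did not pass the test. Actn2 (alpha-actinin-2) had a log2 fold change of 0.23 ± 0.086 (adjusted p = 0.0656) and Smpx, a small stretch-responsive muscle protein, 0.19 ± 0.073 (adjusted p = 0.0724), both without overlap between the groups. Synpo2 (myopodin), Mypn (myopalladin), Nexn (nexilin), Ldb3, Myoz2 (calsarcin-1, which binds calcineurin), Vcl (vinculin) and Tcap lay between -0.25 and 0.18. Of these, Mypn and Ldb3 also had every TAC library above every sham library, and the others overlapped. Vcl shares 25.5% of its exon length with Ap3m1 on the opposite strand, so that its counts may hold reads of that gene. Overlaps of the other genes, apart from Tmod1 and Cryab below, covered at most 7.5% of their exons for any 1 gene.

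Thin filament genes split evenly in wild type, with 3 of 12 higher, 3 lower and 6 that did not pass. Tnni3 (chr7:4518305-4524229, minus strand) was at 1808, 2097 and 1719 CPM in wild type TAC hearts, against 2927, 2895 and 2899.6 CPM in wild type sham hearts. It fell 1.55-fold (-0.63 ± 0.079; adjusted p = 8.81e-05). Lmod3 (leiomodin 3, which promotes actin filament growth at the pointed end, chr6:97238534-97252759, minus strand) was at 107, 104 and 85.4 CPM in wild type TAC hearts, against 142, 156 and 155 CPM in wild type sham hearts, 1.53-fold lower (-0.61 ± 0.087; adjusted p = 0.000231). For both genes the TAC libraries were all below the sham libraries. Tnnt2 was at 4752, 5550.5 and 5143 CPM in wild type TAC hearts, against 6652, 6402 and 6055 CPM in wild type sham hearts, a smaller fall of 1.24-fold (-0.31 ± 0.076; adjusted p = 0.00975).

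The thin filament genes that rose were the minor tropomyosins. Tpm2 was at 33.1, 25.1 and 26.5 CPM in wild type TAC hearts, against 24.1, 20.96 and 19.7 CPM in wild type sham hearts (0.39 ± 0.11; adjusted p = 0.0212). Tpm3 was at 47.6, 35.1 and 43.2 CPM in wild type TAC hearts, against 27.8, 30.6 and 24.8 CPM in wild type sham hearts (0.60 ± 0.16; adjusted p = 0.0186). Tpm4 was at 122, 103 and 128 CPM in wild type TAC hearts, against 78.1, 94.4 and 89.8 CPM in wild type sham hearts (0.43 ± 0.14; adjusted p = 0.0386). All 3 had TAC libraries wholly above sham libraries, but each lost its call when single libraries were left out: Tpm2 without wild type TAC replicate 1 or wild type sham replicate 2 or 3, Tpm3 without wild type TAC or sham replicate 1 or 3, and Tpm4 without any of those 4 or T497A sham replicate 3 (adjusted p up to 0.108, 0.0736 and 0.137). With the title number range as a term Tpm4 missed the threshold (adjusted p = 0.0522). Tpm1, the abundant one, was at 4673, 4889.9 and 5259.5 CPM in wild type TAC hearts, against 5081, 5034 and 6576 CPM in wild type sham hearts, which overlap (-0.17 ± 0.18; adjusted p = 0.525). Tnnc1, Lmod2 (leiomodin 2) and Tmod1 (tropomodulin 1, the pointed-end cap) had log2 fold changes of 0.092, 0.13 and -0.13 and did not pass. Tmod1 shares 32.6% of its exon length with Tstd2 on the opposite strand.

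None of the 6 titin, myosin-binding protein and M-band genes passed in wild type by edgeR's test, and 3 (Myom1, Ttn and Myom3) had an unadjusted p under 0.05. DESeq2 called those 3, Myom1 and Myom3 higher and Ttn lower, and limma-voom called Ttn alone. EdgeR without the filter called 3 higher and 0 lower, with only the 6 libraries compared 1 higher and 1 lower, and with the title number range as a term 1 higher. Over all genes DESeq2 called 4387, limma-voom 3961, edgeR with the range as a term 3690 and the reported fit 3936 of 15764. Without the filter 3940 of 29988 passed, and with only the 6 libraries compared 3960 of 15073. Ttn (titin, the molecular spring of the sarcomere) was at 5166, 6405 and 7481 CPM in wild type TAC hearts, against 10432, 7601 and 9939 CPM in wild type sham hearts. All 3 TAC libraries were below all 3 sham libraries, with a gap smaller than the spread within each group (-0.55 ± 0.20; adjusted p = 0.0671). Myom1 (myomesin 1) was at 2304, 2042 and 2619.7 CPM in wild type TAC hearts, against 1794, 1858 and 2005 CPM in wild type sham hearts (0.30 ± 0.11; adjusted p = 0.0565), without overlap. Myom3 was at 6.88, 4.00 and 5.27 CPM in wild type TAC hearts, against 2.33, 3.13 and 4.47 CPM in wild type sham hearts, which overlap (0.71 ± 0.27; adjusted p = 0.0694). Mybpc3, Myom2 and Obsl1 (obscurin-like 1) had log2 fold changes of 0.19, 0.20 and 0.086. Ttn and Myom2 varied among libraries of 1 group with a mean coefficient of variation of 17.4 and 17.2%, against a median of 8.44% over the 41 genes.

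Of the chaperones, Unc45b, which folds the myosin head, fell in wild type hearts. It was at 106, 110.2 and 103 CPM in wild type TAC hearts, against 128, 148 and 150.1 CPM in wild type sham hearts, 1.33-fold lower and without overlap (-0.42 ± 0.076; adjusted p = 0.00141). Smyd1, a muscle methyltransferase that acts with the myosin chaperones, was at 484, 511 and 525 CPM in wild type TAC hearts, against 466, 502 and 542 CPM in wild type sham hearts (0.01 ± 0.082; adjusted p = 0.947). Cryab (alpha-B-crystallin, a small heat shock protein that binds desmin and titin) was at 1306, 1014 and 1015 CPM in wild type TAC hearts, against 916, 1047 and 1033 CPM in wild type sham hearts (0.16 ± 0.11; adjusted p = 0.334). The libraries of the groups overlapped for Smyd1 and Cryab, and 17.0% of the exons of Cryab overlap Hspb2.

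Markers of some other cells moved with TAC in wild type, and those of others did not. Of 8 fibroblast markers 5 were higher, and their summed level was 3514 to 3978 CPM in wild type TAC hearts, against 1824 to 1937 CPM in wild type sham hearts. Of 6 macrophage markers 5 were higher, with sums of 190.2 to 253.8 CPM in wild type TAC hearts, against 114.4 to 139.3 CPM in wild type sham hearts. Of 10 ventricular cardiomyocyte markers 7 were lower, with sums of 49751 to 57611 CPM in wild type TAC hearts, against 70422 to 79595 CPM in wild type sham hearts. Actc1, Mb and Slc8a1 did not pass. None of 6 endothelial and 8 tested skeletal muscle markers passed. Of 10 smooth muscle and pericyte markers 1 was higher and 1 lower, and of 7 tested atrial markers 2 were higher and 2 lower. In T497A none of these markers passed except Tbx5, on the atrial list, which was lower (-0.45; edgeR's test, adjusted p = 0.0337). The fibroblast sums in T497A were 2310.0 to 2763 CPM in TAC hearts, against 1829 to 2256 CPM in sham hearts. The part of these shifts in the changes of the sarcomere genes, among them the tropomyosins, Flnc and the Pdlim genes that other cells also express, was not tested.

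TAC in T497A hearts changed none of the 41 genes by edgeR's quasi-likelihood test, where 0.114% of all tested genes passed, 0.0634% higher and 0.0507% lower. An unadjusted p under 0.05 was reached by 4 (Nrap, Tnni3, Tnnt2 and Tmod1), where 11.7% of all tested genes reached it. DESeq2 called 1 higher and 1 lower, edgeR without the filter 1 higher and 2 lower, and limma-voom 0. Over all genes DESeq2 called 297 of 15764, edgeR without the filter 331 of 29988 and limma-voom 0, against 18 of 15764 in the reported fit. The median log2 fold change was -0.017, against 0.0069 over all tested genes. The libraries of the groups did not overlap for 9 genes (22%), 5 above and 4 below, where 15.4% of all tested genes did not overlap, 7.71% above and 7.68% below.

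Nrap had the smallest p in T497A, and was at 1035, 1281 and 1132 CPM in T497A TAC hearts, against 929.5, 819 and 862 CPM in T497A sham hearts. The TAC libraries were all above the sham libraries, with a log2 fold change of 0.40 ± 0.084 that did not pass (adjusted p = 0.0998). Tnni3 was at 2250.0, 2150.4 and 2450.4 CPM in T497A TAC hearts, against 2945, 2775 and 2959 CPM in T497A sham hearts, all lower after TAC (-0.34 ± 0.078; adjusted p = 0.117). Tnnt2 was at 4971, 5156 and 5278 CPM in T497A TAC hearts, against 6206, 5697 and 6568 CPM in T497A sham hearts (-0.26 ± 0.076; adjusted p = 0.209). Tmod1 and Smpx followed with -0.22 ± 0.097 and -0.14 ± 0.073 (adjusted p = 0.400 and 0.486). Nrap had an adjusted p of 0.00315 with DESeq2, and Tnni3 of 0.00886. With edgeR without the filter, Nrap, Tnni3 and Tnnt2 had adjusted p-values of 1.96e-05, 0.000314 and 0.0112, and Nrap also passed without T497A TAC replicate 1 (0.0468). Whether these genes passed in T497A thus depended on the tool, the filter and, for Nrap, on 1 library.

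Synpo2l, Flnc, Pdlim1 and Des, which rose in wild type, did not pass in T497A. Synpo2l was at 188, 268 and 208 CPM in T497A TAC hearts, against 156, 158 and 181 CPM in T497A sham hearts (0.42 ± 0.23; adjusted p = 0.522). Flnc was at 487, 506 and 474 CPM in T497A TAC hearts, against 425, 418 and 433 CPM in T497A sham hearts (0.20 ± 0.11; adjusted p = 0.496). In both, every TAC library was still above every sham library. Pdlim1 was at 41.6, 44.2 and 45.2 CPM in T497A TAC hearts, against 39.6, 41.6 and 47.3 CPM in T497A sham hearts and Des at 1673, 1729.9 and 1437 CPM in T497A TAC hearts, against 1468, 1350.4 and 1505 CPM in T497A sham hearts, both with overlap.

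The genes that fell in wild type, other than the troponins, overlapped between the T497A groups. Cmya5 was at 1467, 1194 and 1553 CPM in T497A TAC hearts, against 1779, 1429 and 1452 CPM in T497A sham hearts (-0.15 ± 0.10). Lmod3 was at 143, 138 and 143 CPM in T497A TAC hearts, against 137, 151 and 161 CPM in T497A sham hearts (-0.081 ± 0.087). Unc45b was at 129, 112 and 117 CPM in T497A TAC hearts, against 126, 124 and 134 CPM in T497A sham hearts (-0.096 ± 0.076). None of these 3 was past the threshold in T497A. Ttn was at 8825, 8496 and 9638 CPM in T497A TAC hearts, against 10859, 7145 and 6537 CPM in T497A sham hearts, where T497A sham replicate 1 was far above the other two sham libraries (0.14 ± 0.20; adjusted p = 0.855).

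The minor tropomyosins gave 0.18 ± 0.11 for Tpm2, 0.28 ± 0.16 for Tpm3 and 0.039 ± 0.14 for Tpm4 in T497A. Tpm2 was at 30.5, 35.1 and 29.6 CPM in T497A TAC hearts, against 28.7, 26.6 and 28.8 CPM in T497A sham hearts, above without overlap. Tpm3 was at 26.5, 38.6 and 30.6 CPM in T497A TAC hearts, against 21.2, 30.0 and 27.9 CPM in T497A sham hearts and Tpm4 at 79.9, 109 and 101 CPM in T497A TAC hearts, against 80.7, 111 and 90.4 CPM in T497A sham hearts, both with overlap. Tpm1 was at 4039.5, 5795 and 6246 CPM in T497A TAC hearts, against 6281, 4657 and 6654 CPM in T497A sham hearts, and 1 library of each group was low. Myom1 was at 1477, 1844 and 1806 CPM in T497A TAC hearts, against 1876, 1648 and 2013 CPM in T497A sham hearts, Myom3 at 4.75, 5.32 and 3.08 CPM in T497A TAC hearts, against 3.83, 4.02 and 3.26 CPM in T497A sham hearts, Smyd1 at 509.6, 512 and 473 CPM in T497A TAC hearts, against 595, 487 and 574 CPM in T497A sham hearts and Cryab at 1039, 1113 and 1223 CPM in T497A TAC hearts, against 1195, 1012 and 1248 CPM in T497A sham hearts, all overlapping.

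Of the 18 genes that passed in wild type, 16 had a log2 fold change of the same sign in T497A (88.9%), the exceptions being Pdlim3 (-0.038 ± 0.15) and Pdlim7 (-0.13 ± 0.091). All 18 were smaller in size in T497A, with a median ratio of the T497A to the wild type value of 0.223. Of all 3936 genes that passed in wild type, 87.0% had the same sign and 3901 were smaller in T497A, with a median ratio of 0.308. These genes were chosen by passing in wild type, so the counts are a description.

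**Figure D3:**
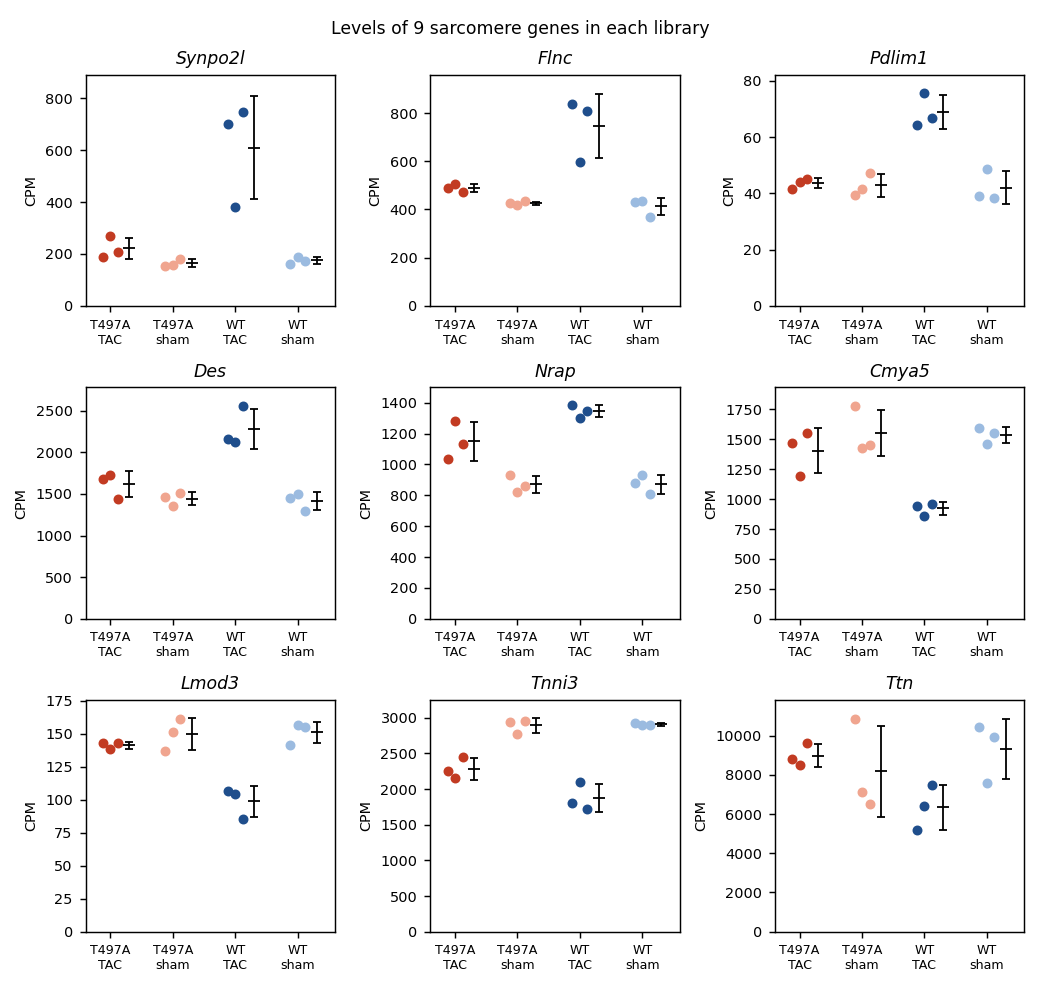
Level in CPM of 9 genes in each of the 12 libraries, with the mean ± SD of each group of 3 in black and the axis starting at 0. In wild type TAC hearts Synpo2l, Flnc, Pdlim1 and Des stand above the other groups, and Cmya5 and Lmod3 below them, while the Nrap libraries lie above and the Tnni3 libraries below their own sham libraries in both TAC groups.

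The difference between the TAC effects of the genotypes (the T497A value minus the wild type value) passed for 3 of the 41 genes (7.32%), where 1.57% of all tested genes passed, 0.894% higher and 0.679% lower. Lmod3 had a positive difference, 0.53 ± 0.12 (adjusted p = 0.0481). Pdlim1 and Flnc had negative ones, -0.68 ± 0.14 (adjusted p = 0.0367) and -0.66 ± 0.15 (adjusted p = 0.0481). All 3 lay close to the threshold of edgeR's test. The direction held in all 12 fits that left out 1 library, but Lmod3 and Flnc passed only in those without T497A TAC replicate 2 or wild type TAC replicate 2 (adjusted p up to 0.123 and 0.129). Pdlim1 passed in 4 of the 12, those without T497A TAC replicate 2, T497A sham replicate 1, wild type TAC replicate 1 or wild type sham replicate 2 (adjusted p up to 0.0976). With limma-voom Pdlim1 alone passed, DESeq2 called 2 higher and 8 lower, and edgeR without the filter 3 and 8. Over all genes limma-voom called 183 of 15764, DESeq2 859 of 15764 and edgeR without the filter 898 of 29988. The reported fit called 248 of 15764. With the title number range as a term none of the 41 passed, and 70 of the 15764 genes did. The differences were then 0.55 for Lmod3, -0.67 for Pdlim1 and -0.66 for Flnc (adjusted p = 0.0958, 0.0845 and 0.0981). Without the 5 libraries rich in Myh4, where 23 of 16753 genes passed, none of the 41 did, although the differences of Flnc and Pdlim1 were larger in size (-0.97 and -0.88, adjusted p = 0.0616 and 0.115).

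The next genes were Pdlim7, -0.54 ± 0.13 (adjusted p = 0.0547), and Cmya5, 0.59 ± 0.15 (adjusted p = 0.0595). Without T497A TAC replicate 2 both passed (adjusted p = 0.0487 and 0.0132), and Cmya5 also without T497A sham replicate 1 (0.0307). The largest difference in size was that of Synpo2l, -1.37 ± 0.32, which did not pass (adjusted p = 0.0714). In all, 17 of the 41 had an unadjusted p under 0.05 (16.8% of all tested genes did), 12 of them of the Z-disc. None of the titin and M-band or chaperone genes passed in the reported edgeR fit, with DESeq2 or with limma-voom, and edgeR without the filter called 1 titin and M-band gene lower. In the reported fit 2 and 1 of them had an unadjusted p under 0.05.

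T497A hearts differed from wild type hearts after TAC in 10 of the 41 genes (24.4%), 3 higher and 7 lower, where 8.7% of all tested genes passed, 4.64% higher and 4.06% lower. An unadjusted p under 0.05 was reached by 21 of the 41, and by 24% of all tested genes. The higher ones were Cmya5 (0.61 ± 0.10; adjusted p = 0.00411), Lmod3 (0.52 ± 0.087; adjusted p = 0.00378) and Tnni3 (0.28 ± 0.078; adjusted p = 0.0387). Cmya5 averaged 1405 ± 187 CPM in T497A TAC hearts, against 922 ± 52.3 CPM in wild type TAC hearts (SD, n = 3 each). Lmod3 averaged 142 ± 2.65 CPM in T497A TAC hearts, against 98.7 ± 11.6 CPM in wild type TAC hearts. Tnni3 averaged 2284 ± 153 CPM in T497A TAC hearts, against 1874 ± 198 CPM in wild type TAC hearts. In all 3 the T497A libraries were above every wild type library.

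Synpo2l was 2.75-fold lower in T497A TAC hearts (-1.46 ± 0.23; adjusted p = 0.00622), at 221 ± 42.0 CPM, against 609 ± 199 CPM in wild type TAC hearts. Pdlim1 was 1.58-fold lower (-0.66 ± 0.10; adjusted p = 0.00257) and Flnc 1.53-fold lower (-0.61 ± 0.11; adjusted p = 0.00477). Des (-0.50 ± 0.093), Pdlim7 (-0.53 ± 0.09) and Pdlim5 (-0.41 ± 0.096) were lower with adjusted p-values of 0.00622, 0.00426 and 0.0185. Myom1, the gene of a thick filament cross-linker, was the 1 gene of the titin and M-band class to pass (-0.44 ± 0.11; adjusted p = 0.023). It was at 1477, 1844 and 1806 CPM in T497A TAC hearts, against 2304, 2042 and 2619.7 CPM in wild type TAC hearts, and every T497A library was lower.

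The libraries did not overlap for 18 of the 41 genes (43.9%), 6 with T497A above and 12 below, where 28% of all tested genes did not overlap, 14.4% above and 13.6% below. Tnni3 kept its call only without T497A TAC replicate 2, T497A sham replicate 2 or wild type TAC replicate 2, and lost it in the other 9 fits that left out 1 library (adjusted p up to 0.168). Myom1 lost it without wild type TAC replicate 1 or 3 or T497A TAC replicate 1 (up to 0.117), and Pdlim5 without wild type TAC replicate 1 or 3 or T497A TAC replicate 3 (up to 0.0644). These 3 genes also missed the threshold when the 6 TAC libraries were fitted alone, and Tnni3 and Pdlim5 with the title number range as a term (adjusted p = 0.0840 and 0.0854). Fewer of the 41 genes were higher, and fewer of all tested genes passed, without the 5 libraries rich in Myh4.

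After sham surgery none of the 41 genes passed between T497A and wild type by edgeR's test, where 0.0254% of all tested genes did. DESeq2 and limma-voom also called 0. An unadjusted p under 0.05 was reached by 2 genes, Tpm2 (0.38 ± 0.11; unadjusted p = 0.00471) and Smpx (0.18 ± 0.073; unadjusted p = 0.0262), where 3.03% of all tested genes reached it. The libraries did not overlap for 3 of the 41 genes (7.32%), Tpm2 and Smpx above and Myom2 below, where 8.21% of all tested genes did not overlap, 4.23% above and 3.98% below. Tpm2 was at 28.7, 26.6 and 28.8 CPM in T497A sham hearts, against 24.1, 20.96 and 19.7 CPM in wild type sham hearts, without overlap. The next by p were Unc45b (-0.15 ± 0.076), Cryab (0.21 ± 0.11) and Pdlim3 (0.27 ± 0.15). Over the 41 genes the log2 differences lay between -0.29 (Myom2) and 0.38 (Tnni1 and Tpm2), with a median of 0.011.

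The 20 Z-disc genes summed to 13843 to 14999 CPM in wild type TAC hearts, against 11820.0 to 12497 CPM in wild type sham hearts, and to 12399 to 12590.0 CPM in T497A TAC hearts, against 11525 to 12842 CPM in T497A sham hearts. The 12 thin filament genes summed to 14402 to 15776 CPM in wild type TAC hearts, against 17519 to 18417 CPM in wild type sham hearts, and to 13973 to 17235 CPM in T497A TAC hearts, against 15945 to 19440.0 CPM in T497A sham hearts. In wild type the Z-disc sums were all higher and the thin filament sums all lower after TAC, and in T497A both overlapped. These sums are set by a few abundant genes, such as Tnnt2, Tnni3 and Tpm1 in the thin filament.

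**Figure D4:**
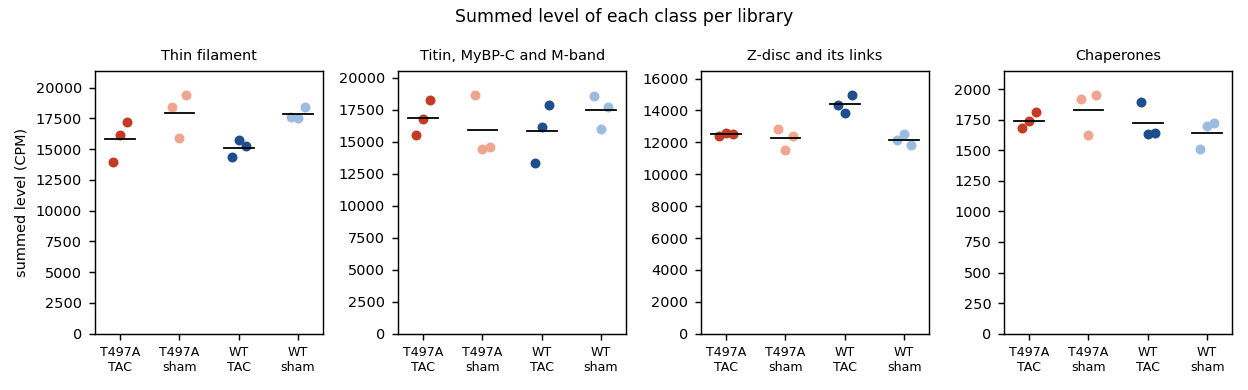
Summed level of each class in every library, in CPM with the axis starting at 0, with the group mean as a line. The Z-disc sums of the 3 wild type TAC libraries, 13843 to 14999 CPM, stand above the other 9 libraries, which reach 12842 CPM at most.

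Of 60 other sarcomere genes on a list of actins, myosins and further Z-disc, costamere and chaperone proteins, 57 were tested. In wild type 21 rose and 8 fell after TAC (50.9%), where 25% of all tested genes passed. Without the 5 libraries rich in Myh4 fewer of these genes passed, and fewer of all tested genes did. The 3 with the smallest p were Actn1 (non-muscle alpha-actinin-1, 0.88 ± 0.094), Sorbs2 (a Z-disc and intercalated disc adaptor, 0.69 ± 0.082) and Xirp2 (an actin-binding Xin-repeat protein, 1.43 ± 0.16). In T497A none passed by edgeR's test, where 0.114% of all tested genes did. An unadjusted p under 0.05 was reached by 16 of the 57, and by 11.7% of all tested genes. DESeq2 called 2 higher and 1 lower, edgeR without the filter 1 higher and limma-voom 0, with the counts over all genes given above. The smallest p-values were those of Sorbs2 (0.39 ± 0.082), Xirp2 (0.78 ± 0.16) and Pdlim4 (-0.59 ± 0.17), with adjusted p-values of 0.0998, 0.0998 and 0.192. The difference of the TAC effects passed for 1 of the 57 (1.75%), near the 1.57% of all tested genes. This was Xirp1 (-0.87 ± 0.18; adjusted p = 0.0412), followed by Actn1 (-0.55 ± 0.13; adjusted p = 0.0573) and Hspb7 (-0.45 ± 0.12; adjusted p = 0.0765). DESeq2 called 1 higher and 7 lower for that difference, limma-voom 0 and 1, edgeR without the filter 2 and 5, and edgeR with the title number range as a term or without the 5 libraries rich in Myh4 none. After TAC, 9 were lower in T497A than in wild type and 0 higher (15.8%), where 4.06% of all tested genes were lower and 4.64% higher. They were led by Actn1 (-0.56 ± 0.094), Xirp1 (-0.71 ± 0.13) and Hspb7, a small heat shock protein of heart (-0.43 ± 0.086). With the title number range as a term 5 of the 57 were lower, and 6 when the 6 TAC libraries were fitted alone. Over all genes these settings called 662 of 15764 and 916 of 15160. After sham none passed by edgeR, DESeq2 or limma-voom, and 1 had an unadjusted p under 0.05, where 3.03% of all tested genes did. Smyd2 (-0.25 ± 0.075), Cfl2 (0.17 ± 0.079) and Fhod3 (-0.19 ± 0.092) had the smallest p-values.

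Some of the genes are neighbours in the genome. Tnni3 and Tnnt1 lie 1.92 kb apart on chromosome 7, and Tnni1 and Tnnt2 lie 25.4 kb apart on chromosome 1, each pair on 1 strand. Tnni3 fell in wild type while Tnnt1 did not pass, with log2 fold changes of -0.63 and -0.46. Synpo2l lies 2.4 kb from Myoz1, a skeletal muscle calsarcin that averaged 0.251 ± 0.107 CPM in wild type TAC hearts, against 0.250 ± 0.123 CPM in wild type sham hearts. Myoz1 did not pass (-0.02 ± 0.55; adjusted p = 0.985).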

How the data were processed

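The mRNA of left ventricle was sequenced single-end (75 cycles, KAPA mRNA HyperPrep kit, per the labels' protocols), 12 libraries in 4 groups of 3. The deposited values are raw counts per gene, 1 column per library. The submitters' processing notes name build mm10, STAR 2.7.3a, Trim Galore 0.6.4, Subread 1.6.3, limma 3.50.3 and featureCounts. What each did, the annotation release, the use of strand and the handling of reads that map to several genes were not given in the sources used here, and the last bears on tropomyosins and other similar genes.

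Genes were filtered with filterByExpr (minimum count 10), leaving 15764 of 55401, scaled by TMM and fitted in 1 model over the 4 groups with edgeR 4.0.16 (robust quasi-likelihood, R 4.3.3). P-values were adjusted by Benjamini-Hochberg over all tested genes, with a threshold of 0.05. An SE is the estimate's size over the root of its F statistic. CPM use TMM-scaled library sizes, and levels per kb the union of exons in GENCODE M21 (GRCm38). The common dispersion corresponds to a coefficient of variation of 17.2%. Libraries of a group differed beyond sampling noise (chi-square per degree of freedom 21.3 to 57.5), so no library was counted as a repeat sequencing of another. This does not tell whether they came from separate animals. All labels carry the same replicate number and 1 batch, so neither could be a term. Simulated data with changes only in wild type TAC were run through edgeR, limma-voom and DESeq2. A limit on false calls was set there for edgeR and limma-voom but not for DESeq2, so that run is no check of the extra calls of DESeq2. DESeq2 1.42.0, limma-voom 3.58.1, RLE factors, no filter, no mitochondrial genes, only the 6 libraries compared and leaving out each library were the alternatives. Chosen after seeing the data were leaving out the 5 libraries with Myh4 above 5 CPM, and the number in the titles as a term, in 2 ranges split at its widest gap. The members, the gene lists and the marker lists were chosen with earlier results of these data known. Genes named with a test are those past the threshold, or the 5 of smallest p where fewer passed; others were singled out after their values were seen. Values in every library are given for the isoform families and for the 3 genes of smallest p of each class in wild type. Positions are from GENCODE M21 and promoter windows from RefSeq (GRCm38.p6). Where RefSeq lists several windows for a gene, the 5′-most one was used.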

Additional observations from a re-analysis of the deposited data

Results flagged for a closer look

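The 3 genes Lmod3, Pdlim1 and Flnc were picked out because the effect of TAC in T497A differed from that in wild type by the test of the difference. For Lmod3 the difference was 0.53 on the log2 scale. For Pdlim1 it was -0.68 and for Flnc -0.66. The adjusted p-values of 0.0481, 0.0367 and 0.0481 stand just under the threshold, none of the 3 passed with the title number range as a term, and the causes of the differences were not tested.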

How the results depend on the processing

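No paired analysis was possible because all libraries carry the same replicate number in the labels and each has a different title number. RLE factors and leaving out mitochondrial genes changed no call of a named gene. After TAC in T497A, 1 gene was higher without the filter and 1 with DESeq2, and 2 were lower without the filter and 1 with DESeq2, all against 0 in the reported fit. For the difference of the TAC effects (1 higher and 2 lower as reported), 3 were higher and 8 lower without the filter, 0 and 1 with limma-voom, 2 and 8 with DESeq2, 0 and 0 with the title number range as a term, and 0 and 0 without the 5 libraries rich in Myh4. Both of these last settings were chosen after seeing the data. Leaving out the 5 libraries left 1 library in each sham group. Fewer of these genes were then higher after TAC in wild type, and fewer of all tested genes passed. The Pdlim3 difference after sham turned to -0.16, against 0.27 as reported, neither past the threshold. Without the filter, 11 were lower in T497A than in wild type after TAC, where 1757 of 29988 genes passed, against 1371 of 15764 as reported. The number of all genes called also differed widely between these settings, as given above. The cause of these shifts was not tested. Leaving out 1 library at a time gave 0 to 1 higher and 0 to 0 lower after TAC in T497A, and 10 to 14 and 6 to 8 in wild type. For the difference it gave 0 to 2 and 0 to 5. Between genotypes it gave 2 to 3 and 5 to 8 after TAC, and 0 to 0 in both directions after sham. Over all 16163 to 16260 genes tested, these fits called 0 to 36 after TAC in T497A and 2766 to 3983 in wild type. They called 40 to 517 for the difference, 463 to 1455 between genotypes after TAC and 1 to 7 after sham. Over the named genes, 308 of 339 values under the other settings stayed on their side of the threshold with their direction, 21 lost it, 9 gained it and 1 changed sign. Among the leave-one-out values, 457 of 516 stayed, 55 lost it, 4 gained it and 0 changed sign. The counts of Tnni1 (0 to 14 per library) limit what can be said of it.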
